A study of Mus musculus with 6 samples.

Results

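The genes described here are the chemokines and chemokine receptors that the mouse array lists under a name beginning with Ccl, Cxcl, Xcl, Cx3cl, Ccr, Cxcr, Xcr, Cx3cr, Ackr or Ccrl and a number. Pf4 and Ppbp are searched for as well, and Ccl2, Ccl7, Ccl8, Ccl11, Ccl12 and Ccr2 are left out. The rule found 47 genes among the 27632 gene names of the array. They are read by 63 probes: 32 genes have 1 probe, 14 have 2 and 1 has 3, and the brightest probe by mean over the 6 arrays stands for its gene, in the counts as well, while other probes are given with each gene. Some array names are old, so Cxcl4 is Pf4, Cxcl7 is Ppbp, Ccrl1 is Ackr4 and Ccl27 is Ccl27a in the current RefSeq table.

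The tissue was the autopod, the part of the limb that becomes the hand or foot plate, of C57BL/6 mouse embryos at E14.5. Cells of the interzone (the band where a joint will form), of the neighbouring growth plate (chondrocytes) and of the tissue between the digits were captured by laser. The mutant embryos were Tgfbr2Prx1KO, by convention a loss of the TGF-beta type II receptor in cells with Prx1-driven Cre, an early limb mesenchyme driver, and the controls were wild-type littermates. Per the labels, 2 embryos of each genotype gave the material, the RNA was amplified by PCR, and 250 ng of product were labelled with Cy3. Prx1-driven Cre acts in limb mesenchyme, so blood cells, endothelium and epidermis in a captured field are not cells it is known to target. Each of the 3 tissues had 1 mutant and 1 control array, so no difference within a tissue has a replicate check, and none is tested.

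Chemokines are small secreted proteins that guide moving cells along a gradient. They act through G protein-coupled receptors, named CC, CXC, XC or CX3C after the spacing of the ligands' first cysteines, while atypical receptors bind and remove chemokines without G protein signalling. In the developing limb, the Cxcl12 and Cxcr4 pair is known for guiding muscle precursors and vessels, and most other members are best known from leukocytes and platelets.

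A level is the log2 processed signal minus the 75th percentile of its array, so that 0 is that percentile, and a difference is the mutant level minus the control level. Genes marked well above background by the scanner software on both arrays of a pair were counted as higher or lower from 2-fold, and a gene so marked on 1 array has only a bound, written as at least N-fold. For the bound, the bright array is set against the detection floor of the dim one (its faintest probe that passed the mark), or against the gene's own reading there if that was higher. Of the 47 genes, 32 were well above background on all 6 arrays (68.1%, against 68.9% of all genes), 9 on 1 to 5 arrays and 6 on none.

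The arrays carried between 72.3% (growth plate control) and 88.3% (interdigital control) of spots well above background, and repeat spots of 1 probe had a median SD of 0.07 to 0.10 log2 units. The growth plate control array was also the dimmest, with a median processed signal of 103, against 340 to 502 on the others. Every growth plate difference and bound between mutant and control is read against that array. Slide 1 carried all 3 controls and the mutant interzone, and slide 2 the other 2 mutant arrays, so for these tissues slide and genotype cannot be told apart. Growth plate cartilage markers summed to 87.0 times the array's 75th percentile on the growth plate mutant array, against 766 on its control array. That mutant sum lay beside 95.6 in interzone and 79.2 in interdigital mutant tissue, so the array labelled growth plate mutant did not stand out by these markers. Interzone markers summed to 63.3 in mutant interzone, below the 76.1 in mutant interdigital tissue, so that array did not stand out either, and to 122 in control interzone, against 92.3 and 74.4 in control growth plate and interdigital tissue. The interdigital list summed to 28.9 in mutant and 28.0 in control interdigital tissue, against 24.0 to 34.6 on the other arrays. The brightest Tgfbr2 probe stood at 2.24, 1.20 and 1.92 in mutant interzone, growth plate and interdigital tissue, against 2.42, -2.40 and 2.50 in control. The sources used here do not say whether this probe lies in the deleted part, so it does not check the genotype.

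Of the members, 37 have an entry in the RefSeq promoter table (GRCm38.p6). The promoters of 3 genes are shown because their transcripts differed most between arrays, and Pf4 and Ppbp because they are neighbours on chromosome 5 with 0 protein-coding genes between them. Each window has 300 bases and is written 5′ to 3′ on the gene's strand. Capitals mark AGATAA or TGATAA, the core read by GATA factors of megakaryocytes, and CAGAC, a box read by Smad proteins of the TGF-beta pathway. Both were searched on both strands, and no match of one overlapped the other.
Pf4, chr5:90772185-90772484, plus strand: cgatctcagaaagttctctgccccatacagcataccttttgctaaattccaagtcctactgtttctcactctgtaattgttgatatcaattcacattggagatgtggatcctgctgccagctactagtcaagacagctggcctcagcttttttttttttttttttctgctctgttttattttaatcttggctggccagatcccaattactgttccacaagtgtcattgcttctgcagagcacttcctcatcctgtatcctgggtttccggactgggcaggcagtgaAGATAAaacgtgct
Ppbp, chr5:90768268-90768567, plus strand: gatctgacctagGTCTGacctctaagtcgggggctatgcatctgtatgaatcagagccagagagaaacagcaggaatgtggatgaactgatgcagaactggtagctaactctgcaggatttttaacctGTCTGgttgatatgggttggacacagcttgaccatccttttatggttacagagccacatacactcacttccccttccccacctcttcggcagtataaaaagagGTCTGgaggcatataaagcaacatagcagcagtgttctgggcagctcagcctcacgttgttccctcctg
Ackr4, chr9:104126594-104126893, minus strand: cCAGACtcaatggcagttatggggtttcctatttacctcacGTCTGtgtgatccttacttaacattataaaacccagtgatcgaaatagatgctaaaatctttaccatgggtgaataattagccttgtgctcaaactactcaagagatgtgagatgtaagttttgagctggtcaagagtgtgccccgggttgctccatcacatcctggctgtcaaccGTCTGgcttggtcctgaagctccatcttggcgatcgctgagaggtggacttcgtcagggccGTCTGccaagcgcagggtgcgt

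The Pf4 window held 1 GATA core and 0 CAGAC boxes, the Ppbp window 0 GATA cores and 3 boxes, and the Ackr4 window 0 cores and 4 boxes. Of all 32851 promoters in the table, 18.6% held a GATA core and 49.6% a CAGAC box. These matches are letters in a window and describe neither binding nor a cause.

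Compared with control, the interzone mutant array had 6 of 33 measured members at least 2-fold higher (background of all genes 18.6%) and 8 of 33 at least 2-fold lower (background 22.6%). Both shares, 18.2% and 24.2%, lay near the background. At 4-fold, 1 was higher (background 8.59%) and 3 were lower (background 10.2%). The higher members were Ccl6, Cxcl1, Cxcr4, Ccl21c, Cxcl15 and Ccl19. The lower ones were Ccrl1, Ccr8, Ccr1l1, Ccl1, Cxcl14, Ccr4, Cx3cl1 and Ccl27.

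In the growth plate, 2 of 33 measured members, Ccrl1 and Cx3cl1, were higher in the mutant (6.06%, background 21.5%). A further 14 were lower (42.4%, background 32.5%), namely Cxcl4, Cxcl1, Ccr7, Ccr6, Ccl9, Ccrl2, Cxcl2, Ccr4, Ccl24, Ccl25, Cx3cr1, Cxcr3, Ccl20 and Ccr3. At 4-fold, Ccrl1 was higher (background 13.2%) and Cxcl4, Cxcl1 and Ccr7 were lower (background 12.5%). The median difference over the measured members was -0.93, against -0.47 over all measured genes. The split depended on the scaling: 12.5% of the members' calls were higher here, 41.7% with the percentile computed from detected probes, and 3.57% in the deposited value table, while 5 members were higher and 5 lower relative to the median difference of all genes. The corresponding shares of calls over all genes were 39.9%, 53.8%, 16.1% and 57.2%.

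In interdigital tissue, 3 of 37 measured members, Ccl21c, Cxcl14 and Cx3cl1, were higher in the mutant (8.11%, background 10.5%). The 6 lower members, Ccl9, Ccr1l1, Cxcl4, Ccl4, Ccr4 and Ccr3, made up 16.2% (background 18.0%). At 4-fold, Ccl21c and Cxcl14 were higher (background 3.54%) and Ccl9, Ccr1l1 and Cxcl4 lower (background 5.05%). The members' median difference was -0.58 here and -0.09 in interzone, against -0.20 and -0.09 over all genes. After background correction by normexp, the interzone split turned to 18 higher and 3 lower, 85.7% of the calls, against 42.9% here; over all genes it was 76.0%, against 45.1% here. Of the interdigital calls, 33.3% were higher here and 44.4% in the deposited table and relative to the median of all genes, while quantile normalization gave 4 higher and 4 lower; over all genes these shares were 36.9%, 48.4%, 50.2% and 49.0%.

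**Figure D1:**
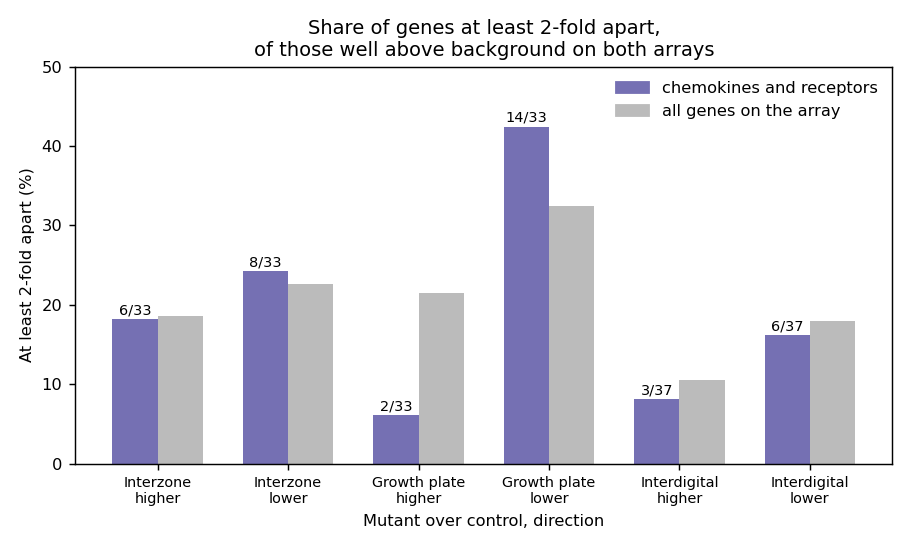
Share of genes at least 2-fold apart between mutant and control within each tissue, in percent and by direction, for the chemokines and receptors (purple) and for all genes (grey) well above background on both arrays. In the growth plate 14 of 33 members were lower and 2 of 33 higher; in the other tissues the purple and grey bars lie close together.

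Across the 3 pairs, Ccr4 was the only one of 32 members that was at least 2-fold lower in the mutant of every tissue (background 2.04%), and 0 were higher in every tissue (background 1.53%). The pairs of interzone, growth plate and interdigital tissue share no array with each other. With tissue as a block, a limma fit over the 6 arrays called 0 of 27632 genes for genotype (background 0.0% in each direction at an adjusted p of 0.05; 1769 genes at an unadjusted p under 0.05). Among the members, 0 were called and 4 had an unadjusted p under 0.05: Cxcl4 (-3.08 ± 0.62, SE), Ccr4 (-1.53 ± 0.48), Ccr1l1 (-1.79 ± 0.56) and Cxcl7 (3.93 ± 1.33), each with an adjusted p of 0.71 in limma. Cxcl7 was not well above background on 4 arrays and Cxcl4 on 1, so their estimates and errors take readings near background as levels. These arrays number 6, and the spread in this fit is how far the tissues differ in the contrast.

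**Figure D2:**
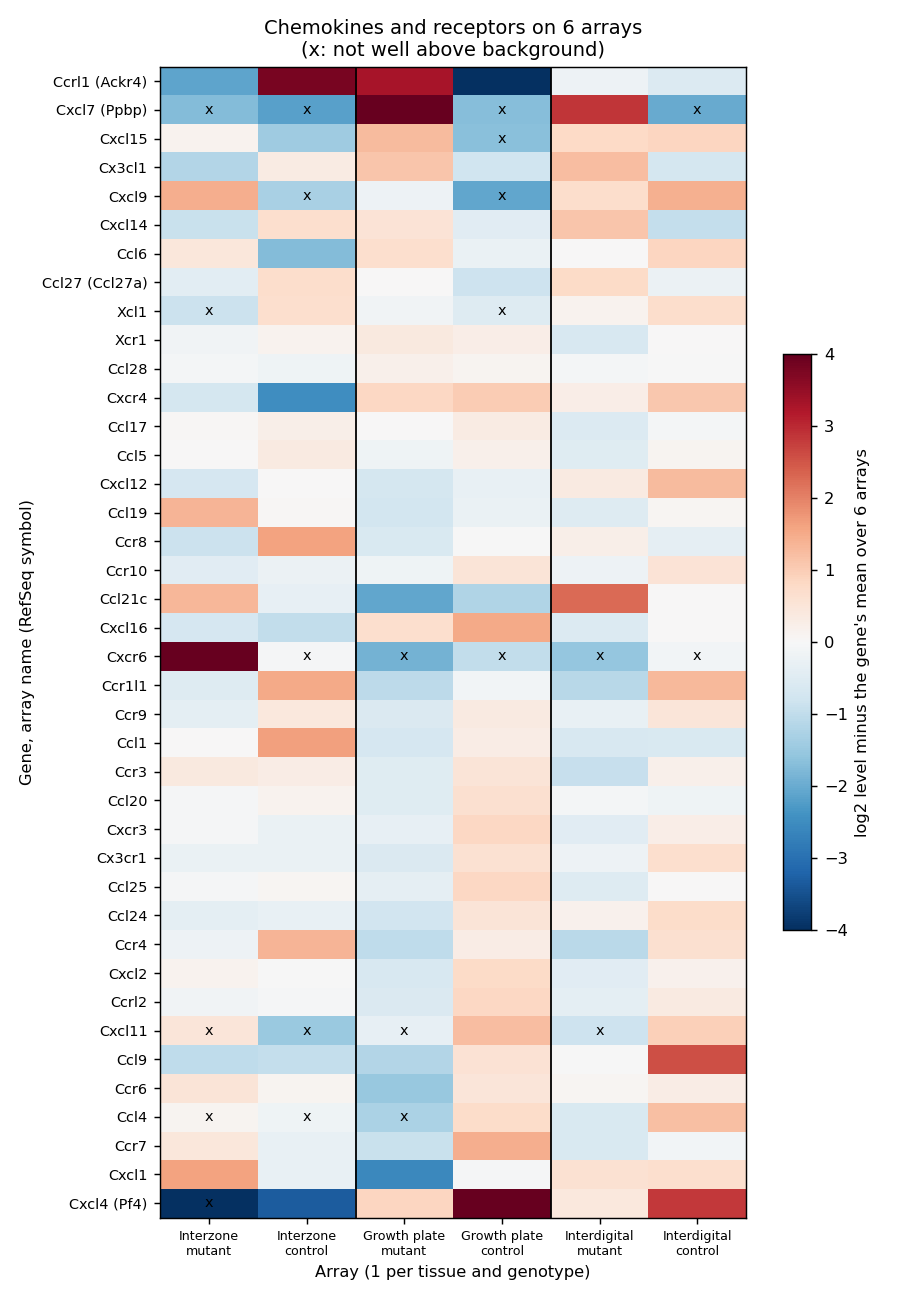
Levels of chemokines and receptors well above background on 1 array or more, as the log2 level minus the gene's own mean over the 6 arrays (colour, clipped at 4 units either way), with 1 column per array and an x where the probe was not well above background. Rows run from the largest positive to the largest negative growth plate difference; Ccrl1 and Cxcl7 are at the top and Cxcl4 is at the bottom.

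Cxcl4 and Cxcl7 encode platelet factor 4 and pro-platelet basic protein, chemokines stored in platelet granules and made in megakaryocytes. Cxcl4 stood at -0.91 in mutant growth plate and -1.35 in mutant interdigital tissue, against 3.34 and 1.04 in control, and it was not well above background in mutant interzone, against -5.11 in control. It was therefore lower in the mutant of all 3 tissues: 19.0-fold in growth plate, 5.26-fold in interdigital tissue and at least 2.61-fold in interzone (45.2% of the genes well above background on only 1 of the 2 arrays passed such a bound). On the 5 arrays where it was well above background, its level lay between -5.11 in control interzone and 3.34 in control growth plate. In these captured samples, fewer cells of a type and less RNA per cell cannot be told apart.

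Cxcl7 went the other way. It stood at -2.24 in mutant growth plate and -4.12 in mutant interdigital tissue and was not well above background on the other 4 arrays, the interzone mutant and the 3 controls. In growth plate the mutant stood at least 19.7-fold higher (58.1% of genes with a bound there were higher by 2-fold). In interdigital tissue it stood at least 8.47-fold higher (25.5%). The 2 arrays that detected Cxcl7 were those on slide 2, so slide and genotype cannot be told apart for it. Each gene has 1 probe.

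Among 10 platelet and megakaryocyte markers, 1 was higher and 4 lower of 9 measured in growth plate, 1 higher and 1 lower of 9 in interzone, and 1 higher and 1 lower of 10 in interdigital tissue. For this and every later list, the background of all genes was 18.6% higher and 22.6% lower in interzone. It was 21.5% and 32.5% in growth plate, and 10.5% and 18.0% in interdigital tissue. Itga2b, the platelet integrin alpha-IIb, stood at -1.79 in mutant and 1.86 in control growth plate (12.5-fold lower) and at -1.41 in mutant and -0.20 in control interdigital tissue (2.31-fold lower). Treml1, a platelet granule receptor, was 2.36-fold higher in mutant growth plate and 2.78-fold higher in mutant interzone. Against these, Gp9 was 4.71-fold higher in mutant interdigital tissue (-4.72, against -6.95 in control), and Gp1ba was 2.50-fold lower in mutant interzone. The list summed to 64.9, 62.0 and 71.1 in mutant growth plate, interdigital tissue and interzone, against 123, 73.7 and 70.3 in control. Most of each sum came from the brightest gene of the list, which stayed within 2-fold in each tissue, so the sums say little about the other markers. None was below background on any array except Gp9 in mutant growth plate and control interzone. Erythroid markers were also lower in mutant growth plate, 8 of 11 against 2 higher. The part of blood content in the Cxcl4 and Cxcl7 differences was not tested.

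**Figure D3:**
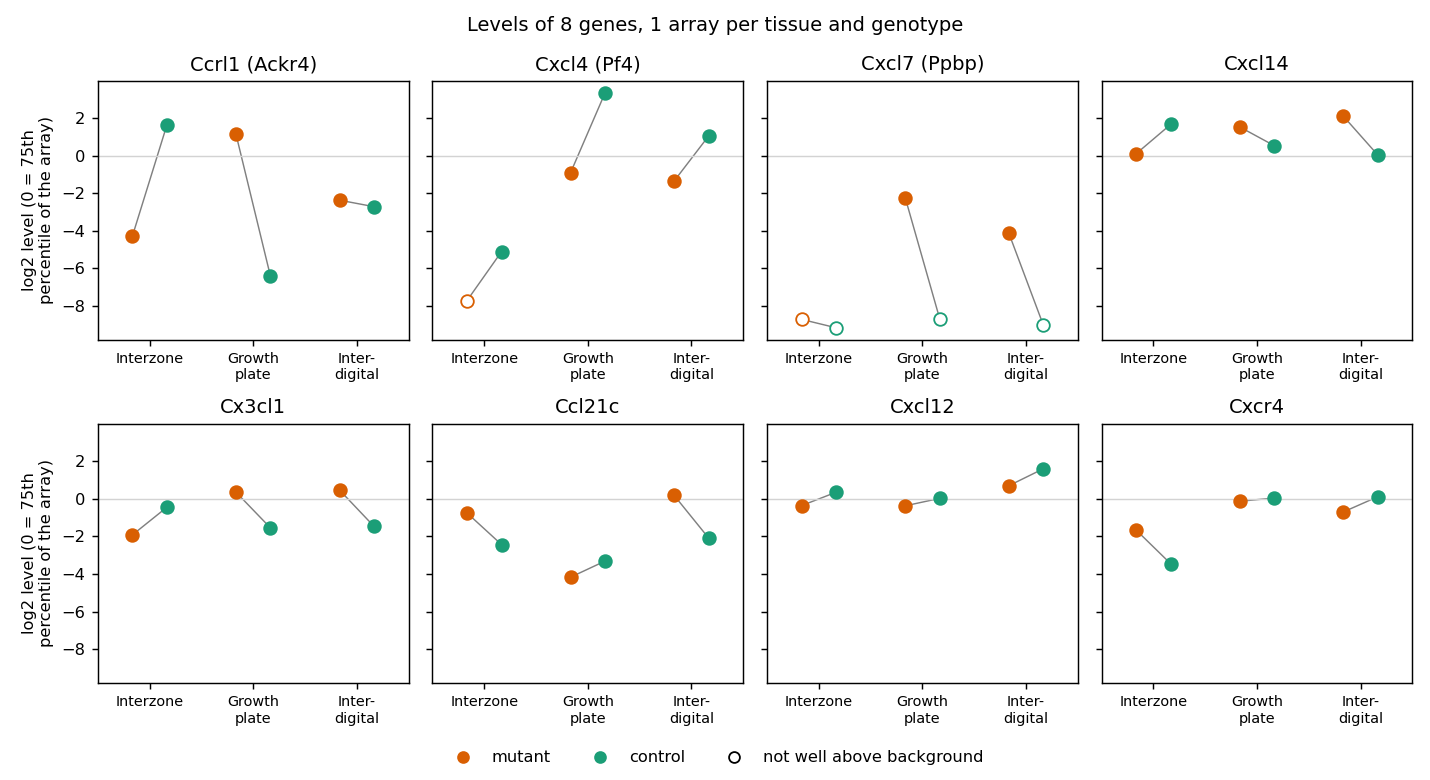
Log2 levels (0 is the 75th percentile of the array) of 8 genes on the mutant (orange, left) and control (green, right) array of each tissue, with open circles where the probe was not well above background. Cxcl4 lies lower and Cxcl7 higher in mutant growth plate and interdigital tissue, and the Ccrl1 lines cross between interzone and growth plate.

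Ccrl1 (Ackr4) encodes an atypical receptor that takes up Ccl19, Ccl21 and Ccl25. Its level was -4.28, 1.13 and -2.37 in mutant interzone, growth plate and interdigital tissue, against 1.63, -6.42 and -2.72 in control. The mutant was thus 60.2-fold lower in interzone and 188-fold higher in growth plate, and within 2-fold (1.27-fold higher) in interdigital tissue. The control growth plate level of -6.42 lay just above the detection floor of that array, -6.54, so the size of the 188-fold rests on a reading near background. High values stood in control interzone and mutant growth plate, and low ones in mutant interzone and control growth plate. Both differences kept their direction and passed 2-fold under all 7 other settings tried, though dropping the detection filter could not change either. A second Ccrl1 probe gave -0.85 in interzone and 3.81 in growth plate, so it went the same way in both but was under 2-fold in interzone. In interdigital tissue this second probe was 2.79-fold higher in the mutant (-2.94, against -4.42 in control). The interdigital difference within 2-fold therefore holds for the brightest probe alone.

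The other atypical receptor among the members is Ccrl2, which binds chemerin, a chemoattractant outside the chemokine family. It stood at -4.79, -5.24 and -5.04 in mutant interzone, growth plate and interdigital tissue, against -4.71, -3.83 and -4.30 in control. It was lower in mutant growth plate, by 2.67-fold (-0.94, under 2-fold, relative to the median of all genes), and within 2-fold elsewhere. Its second growth plate probe was lower too, by 2.46 on the log2 scale.

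Atypical receptors listed under older names were not members and were read as part of a list of 12 chemoattractant relatives. Cmkor1 (Ackr3), the scavenger of Cxcl12, was chosen for mention after its values were seen. It was at -3.24 and -2.01 in mutant growth plate and interdigital tissue, against -3.22 in control interdigital tissue and no level well above background in control growth plate. In interzone it was not well above background in the mutant, against -1.57 in control. As for Ccrl1, control interzone and mutant growth plate stood above their partner arrays, and mutant interdigital tissue was 2.31-fold higher than control. Ccbp2 and Darc, atypical receptors of the same list also named after their values were seen, did not share this pattern. Ccbp2 was 8.71-fold lower in mutant growth plate (-3.85, against -0.72 in control) and 1.37-fold higher in mutant interzone. Darc stayed within 2-fold in every tissue. Of the 12 relatives, 0 were higher and 1 lower of 11 measured in interzone, 2 higher and 5 lower of 11 in growth plate, and 1 higher and 1 lower of 12 in interdigital tissue.

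Cxcl12, the stromal chemokine that holds and guides cells through Cxcr4, was well above background everywhere. It stood at -0.36, -0.38 and 0.69 in mutant interzone, growth plate and interdigital tissue, against 0.35, 0.02 and 1.59 in control, and each difference (-0.71, -0.40 and -0.90) of this brightest probe stayed within 2-fold. A second Cxcl12 probe, well above background on all 6 arrays, read -4.07, -1.38 and -1.35 in mutant and -5.51, 0.21 and 0.18 in control interzone, growth plate and interdigital tissue. Its differences all passed 2-fold, at 1.44, -1.59 and -1.52, with the opposite sign in interzone, so the size of the Cxcl12 differences depends on the probe and no interzone direction can be given. On the brightest probe, interdigital tissue held the highest Cxcl12 level of both genotypes. Interzone was 2.08-fold lower than interdigital tissue in mutant and 2.37-fold lower in control, and growth plate 2.10-fold lower in mutant and 2.98-fold lower in control. The second probe was also lowest in interzone in both genotypes, but it was about level between growth plate and interdigital tissue.

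Its receptor Cxcr4 was at -1.67, -0.13 and -0.70 in mutant interzone, growth plate and interdigital tissue, against -3.46, 0.04 and 0.11 in control. On this probe the mutant interzone was 3.46-fold higher, the other tissues stayed within 2-fold, and the interzone was the lowest tissue in both genotypes, 2.90-fold lower than growth plate in mutant and 11.3-fold lower in control. A second Cxcr4 probe was detected in control interzone (-6.24) and not in mutant interzone, which left the mutant at least 1.19-fold lower, against the direction of the brightest probe. It read 4.58 higher in mutant growth plate, where the brightest probe read -0.17, so Cxcr4 has no settled difference in interzone or growth plate. Endothelial markers, a cell type known for Cxcr4, were higher for 7 and lower for 2 of 14 in mutant interzone, higher for 7 and lower for 1 of 11 in growth plate, and higher for 0 and lower for 6 of 14 in interdigital tissue. Their sums were 17.0, 15.9 and 20.1 in mutant and 15.6, 9.42 and 30.1 in control interzone, growth plate and interdigital tissue; Kdr, Tek and Tie1 were below background in control growth plate. Their part in the Cxcr4 difference was not tested.

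Cxcl14, a chemokine of epithelia and mesenchyme whose receptor is debated, was at 0.10 in mutant interzone, 1.52 in mutant growth plate and 2.09 in mutant interdigital tissue, against 1.66, 0.52 and 0.02 in control. The mutant was 2.95-fold lower in interzone and 4.19-fold higher in interdigital tissue. Its growth plate difference, 1.99-fold higher, came just under 2-fold, passed it in 3 other settings (1.24 to 1.47 on the log2 scale) and turned to -0.12 in the deposited table. Ccl27, the skin chemokine that attracts T cells through Ccr10, had the same signs, except for -0.27 in growth plate in the deposited table. It stood at 0.58, 1.02 and 1.75 in mutant interzone, growth plate and interdigital tissue, against 1.71, 0.18 and 0.77 in control. Only its interzone difference reached 2-fold (2.18-fold lower; -0.89 in the deposited table), and the interdigital one was 1.98-fold.

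Ccl28, a mucosal ligand of the same receptor, varied least of the members, over 0.38 log2 units. Ccr10 itself was at -4.62, -4.34 and -4.35 in mutant and -4.39, -3.64 and -3.59 in control interzone, growth plate and interdigital tissue, and stayed within 2-fold. Epidermal markers were higher in the mutant for 10 of 12 in interzone, 5 of 9 in growth plate and 8 of 9 in interdigital tissue, and lower for 0. They summed to 166, 175 and 151 in mutant and 20.3, 77.9 and 6.45 in control interzone, growth plate and interdigital tissue; Trp63 and Cdh1 were below background in control growth plate and interdigital tissue. Keratin Krt14 was 5.45-fold higher in mutant interzone and 18.6-fold higher in mutant interdigital tissue. The part of epidermis in the Cxcl14 and Ccl27 differences was not tested.

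Cx3cl1, or fractalkine, and Cxcl16 are made as membrane-bound chemokines, with the receptors Cx3cr1 and Cxcr6. Cx3cl1 was at -1.92, 0.35 and 0.46 in mutant interzone, growth plate and interdigital tissue, against -0.45, -1.55 and -1.47 in control. On this probe the mutant was 3.74-fold higher in growth plate (0.79 log2 in the deposited table), 3.82-fold higher in interdigital tissue and 2.77-fold lower in interzone. The gene's other probe went the opposite way in all 3 tissues. It read 2.08 higher in mutant interzone on the log2 scale, and it was not detected in mutant growth plate or interdigital tissue, against -6.09 and -4.87 in control, which left the mutant at least 2.67-fold and at least 7.52-fold lower. No direction can therefore be given for Cx3cl1 in any tissue. Over both probes the interzone difference was 0.30.

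Cx3cr1, the fractalkine receptor of macrophages, was at -2.90, -3.21 and -2.84 in mutant and -2.89, -2.03 and -1.96 in control interzone, growth plate and interdigital tissue. Its growth plate difference, 2.27-fold lower, was opposed in sign by its other probe (0.75), as was the interdigital one (0.94, against -0.88). In interzone the brightest probe was level (-0.01) while the other read 10.2-fold higher in the mutant (-1.80, against -5.15 in control). Both probes were well above background on all 6 arrays. Cxcl16 stood at -2.52, -1.18 and -2.39 in mutant and at -2.84, -0.32 and -1.83 in control interzone, growth plate and interdigital tissue. On this probe mutant and control values stayed within 2-fold of each other in every tissue, while growth plate was 2.31-fold higher than interdigital tissue in mutant and 2.86-fold higher in control, and interzone was 2.53-fold lower than growth plate in mutant and 5.75-fold lower in control. The second Cxcl16 probe, also well above background on all 6 arrays, read -4.37, -2.95 and -4.40 in mutant and 0.19, -4.49 and -2.01 in control interzone, growth plate and interdigital tissue. Its differences of -4.56, 1.54 and -2.39 stood against 0.32, -0.87 and -0.56 for the brightest probe, and it placed control interzone above control growth plate, so neither the genotype differences nor the order of the tissues is settled for Cxcl16. Cxcr6 was well above background only in mutant interzone, at -3.12, at least 14.9-fold higher there than in control (23.6% of genes with a bound passed 2-fold in that direction).

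Macrophage markers were higher for 10 and lower for 2 of 16 measured in mutant interzone, higher for 4 and lower for 4 of 15 in growth plate, and higher for 1 and lower for 4 of 17 in interdigital tissue. They summed to 21.7, 7.47 and 17.2 in mutant and 7.55, 15.9 and 24.0 in control interzone, growth plate and interdigital tissue. Cd163 was below background on every array except control interdigital tissue. Tyrobp, a signalling adaptor of myeloid cells, was 32.6-fold higher in mutant interzone and 13.3-fold higher in mutant growth plate. Fcgr3 of the same list went the other way in growth plate, where it was 2.61-fold lower in the mutant. The part of macrophage content in the results on the macrophage-type ligands and receptors was not tested.

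**Figure D4:**
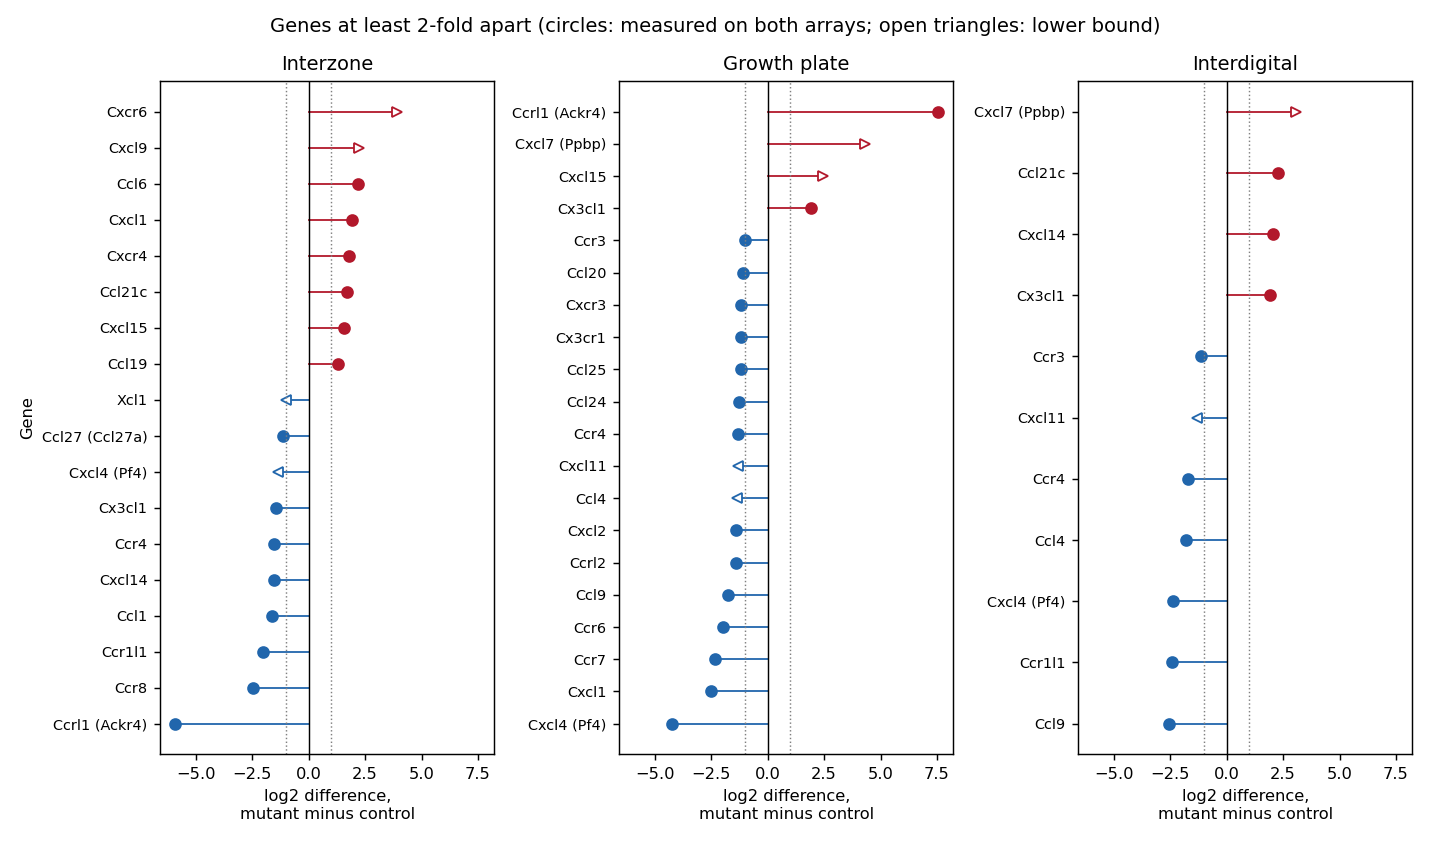
Members at least 2-fold apart between the mutant and control arrays of a tissue, as the log2 difference mutant minus control. Filled circles were measured on both arrays, open triangles are lower bounds, and dotted lines mark 2-fold; Ccrl1 is the lowest in interzone and the highest in growth plate.

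The inflammatory CC ligands and their receptors are best known from macrophages and T cells. Ccl6, a macrophage chemokine of rodents, stood at -1.99, -1.76 and -2.43 in mutant and -4.15, -2.69 and -1.56 in control interzone, growth plate and interdigital tissue. It was 4.47-fold higher in mutant interzone and within 2-fold elsewhere. Ccl9, its relative, was at -4.97, -5.14 and -3.96 in mutant, against -4.93, -3.38 and -1.38 in control. It was 3.37-fold lower in mutant growth plate and 5.98-fold lower in mutant interdigital tissue, and level in interzone (-0.05). Interdigital tissue had the highest Ccl9 level in both genotypes, and interzone was 2.01-fold lower than it in mutant and 11.7-fold lower in control.

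Ccl4, a chemoattractant of monocytes and T cells, was measured in mutant interdigital tissue (-7.48), against -5.65 in control, 3.54-fold lower (-0.63 with normexp and -0.99 with quantile normalization). In growth plate it was at least 2.58-fold lower in the mutant (22.9% of genes had a lower bound of 2-fold), and in interzone neither array detected it. The brightest probe of Ccl5, known for attracting T cells, stayed between -0.28 and 0.56 on the 6 arrays. A second, dimmer Ccl5 probe read 2.07-fold higher in mutant interzone (-5.13, against -6.18 in control) and 5.77-fold lower in mutant interdigital tissue (-6.32, against -3.79). It was not detected in mutant growth plate, against -5.52 in control, at least 3.92-fold lower, so the steady level of Ccl5 holds for the brightest probe alone. Ccr1l1, a Ccr1-like receptor gene, was at -5.34, -5.88 and -5.94 in mutant interzone, growth plate and interdigital tissue, against -3.32, -4.95 and -3.53 in control. It was 5.31-fold lower in mutant interdigital tissue; its interzone value, 4.07-fold lower, turned to 1.13 log2 higher with normexp.

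Ccr3, Ccr4 and Ccr8 are receptors of eosinophils and of type 2 and regulatory T cells. Ccr4 was at -4.01, -4.83 and -4.91 in mutant interzone, growth plate and interdigital tissue, against -2.47, -3.52 and -3.19 in control. All 3 control values lay above all 3 mutant values, with 2.91-fold, 2.49-fold and 3.30-fold lower mutant levels. The interdigital difference passed 2-fold under all 7 other settings. Dropping the detection filter could not change it, and neither could the mean over probes, because the second probe was not measured there. The interzone difference turned to 0.86 higher with normexp, and the growth plate one was -0.84 relative to the median of all genes. The second Ccr4 probe was measured as a pair only in interzone, at -0.39.

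Ccr3 was 2.02-fold lower in mutant growth plate and 2.20-fold lower in mutant interdigital tissue, on levels of -5.02 and -5.45 in mutant against -4.01 and -4.32 in control; both were under 2-fold with normexp, and on its second probe (-0.88 and -0.36). Ccr8 was at -5.11 in mutant and -2.63 in control interzone, 5.57-fold lower, and its ligand Ccl1 was at -5.24 in mutant and -3.60 in control, 3.12-fold lower. With normexp both turned positive (0.62 and 1.59). Elsewhere the pair stayed within 2-fold. The Ccr4 ligand Ccl17 varied by 0.87 log2 units and never by 2-fold between genotypes. Ccl24, an eosinophil chemokine acting on Ccr3, was 2.43-fold lower in mutant growth plate (-1.25, against 0.03 in control). Its second probe was close in size there (-1.22), but the difference was under 2-fold relative to the median of all genes. That second probe was also 2.18-fold lower in mutant interdigital tissue (-2.68, against -1.56 in control), where the brightest probe stayed within 2-fold (-0.56).

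The readings of undetected members also differed between arrays. These 6 members, Ccl3, Ccl22, Ccr1, Cxcl5, Cxcl10 and Cxcl13, were below background on every array. Their differences, mutant minus control, ran from -1.23 to -0.70 in growth plate, -0.86 to -0.40 in interdigital tissue and -0.35 to 0.61 in interzone. The part of such shifts in the calls of dim members was not tested.

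Homing chemokines bring lymphocytes and dendritic cells to lymphoid organs and skin. Ccl21c and Ccl19 are the ligands of Ccr7. Ccl21c stood at -0.76, -4.17 and 0.18 in mutant interzone, growth plate and interdigital tissue, against -2.44, -3.31 and -2.09 in control. It was 3.21-fold higher in mutant interzone and 4.82-fold higher in mutant interdigital tissue, and 1.81-fold lower in growth plate. The growth plate was below interdigital tissue in both genotypes, 20.3-fold in mutant and 2.33-fold in control. Ccl21 genes are near-identical copies in the mouse, so the probe may read several of them.

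Ccl19 was 2.47-fold higher in mutant interzone (1.29, against -0.01 in control), and its second probe read 2.53 higher on the log2 scale. Its growth plate and interdigital differences were -0.49 and -0.60. Ccr7 was 5.07-fold lower in mutant growth plate (-7.10, against -4.76 in control) and within 2-fold elsewhere. Ccr6, the receptor of Ccl20, was 3.97-fold lower in mutant growth plate (-2.67, against -0.68 in control) and stayed within 2-fold in the other tissues.

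On their brightest probes, Ccl20 (2.15-fold lower) and Ccl25 (2.29-fold lower), the thymic and gut ligand of Ccr9, were past 2-fold in growth plate alone. Both were under it relative to the median of all genes. The brightest Ccl25 probe lay above the 75th percentile of each array, between 1.12 and 2.47. Other Ccl25 probes read -3.64 and -0.29 in growth plate, and the former was also 2.68-fold lower in mutant interdigital tissue (-1.03, against 0.39 in control). Ccr9 stayed within 2-fold in all tissues (-0.94 to -0.77). Lymphocyte markers were higher for 3 and lower for 2 of 13 in mutant interzone, higher for 2 and lower for 3 in growth plate and higher for 2 and lower for 1 in interdigital tissue. They summed to 4.78 to 7.45 on the mutant arrays and 5.81 to 6.04 on the control arrays, with all 13 well above background on each array, and their part was not tested.

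Cxcl1, Cxcl2 and Cxcl15 attract neutrophils, and Cxcl1 and Cxcl2 do so through Cxcr2. Cxcl1 was at -2.51, -6.70 and -3.52 in mutant interzone, growth plate and interdigital tissue, against -4.44, -4.19 and -3.45 in control. It was 3.81-fold higher in mutant interzone, 5.69-fold lower in mutant growth plate and level in interdigital tissue (-0.07). Cxcl2 was 2.67-fold lower in mutant growth plate (-7.01, against -5.59 in control; -0.94 relative to the median of all genes). Cxcl15, or lungkine, was at -5.22, -4.10 and -4.58 in mutant, against -6.78 in interzone and -4.51 in interdigital control, and was not detected in control growth plate. On this probe it was 2.95-fold higher in mutant interzone and at least 5.43-fold higher in mutant growth plate. A second Cxcl15 probe went the other way in interzone, where it was not detected in the mutant, against -3.80 in control, at least 6.47-fold lower. It read -0.32 in growth plate and was at least 3.54-fold lower in mutant interdigital tissue, so Cxcl15 has no settled direction.

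Neutrophil and mast cell markers were higher for 1 and lower for 2 of 10 in mutant interzone, higher for 1 and lower for 6 of 10 in growth plate and higher for 2 and lower for 1 of 12 in interdigital tissue. The mast cell protease Cma1 was 5.65-fold higher in mutant interzone, 5.06-fold lower in mutant growth plate, and 3.98-fold higher in mutant interdigital tissue, where Cxcl1 was level. Kit, a receptor of mast cells, was 2.32-fold lower in mutant interzone and 3.69-fold lower in mutant growth plate. The list summed to 10.6, 7.96 and 19.5 in mutant and 3.13, 38.9 and 6.26 in control interzone, growth plate and interdigital tissue. Cma1 made up most of each sum except in control interzone. S100a8 was below background in interzone and growth plate of both genotypes. The part of these cells in the Cxcl1 difference was not tested.

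Of the interferon-induced ligands of Cxcr3, Cxcl9 was well above background on 4 of the 6 arrays, Cxcl11 on 2 and Cxcl10 on 0. Cxcl9 was at -4.79 in mutant interzone, at least 4.70-fold higher than in control, and at -6.44 in mutant growth plate, at least 1.07-fold higher than in control. It stood at -5.54 in mutant and -4.83 in control interdigital tissue. Cxcl11 was detected only in control growth plate (-6.18) and control interdigital tissue (-6.47), which left the mutant at least 2.50-fold and at least 2.49-fold lower (49.3% of genes with an interdigital bound were lower by 2-fold). Cxcr3 was at -2.69, -2.98 and -3.10 in mutant and -2.90, -1.81 and -2.38 in control interzone, growth plate and interdigital tissue. It was 2.26-fold lower in mutant growth plate (-0.70 relative to the median of all genes). Xcl1, a lymphocyte chemokine, was at least 2.03-fold lower in mutant interzone, and its receptor Xcr1, a marker of cross-presenting dendritic cells, stayed within 2-fold in each tissue, between -1.73 and -0.71, although its second probe read -1.20 in growth plate.

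Tissues of one genotype were compared next. Between mutant interzone and growth plate, 6 of 34 members were higher (background 22.0%) and 6 lower (background 17.9%), and between the control tissues 8 of 33 were higher (background 24.6%) and 7 lower (background 23.6%). Interzone against interdigital tissue gave 4 of 34 higher (background 19.6%) and 7 lower (background 17.7%) in mutant, and 5 of 35 higher (background 15.2%) and 8 lower (background 16.1%) in control. Growth plate against interdigital tissue gave 5 of 38 higher (background 14.7%) and 5 lower (background 16.7%) in mutant, and 3 of 35 higher (background 24.7%) and 6 lower (background 24.7%) in control. The 8 members higher in control interzone than in control growth plate, Ccl1, Ccl27, Ccr1l1, Ccr4, Ccr8, Ccrl1, Cx3cl1 and Cxcl14, are the same 8 that were lower in mutant than in control interzone, and both counts rest on the 1 control interzone array.

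In both genotypes, Cxcl16 and Cxcr4 were the 2 of 32 members lower in interzone than in growth plate in both genotypes (6.25%, background 4.71%), and 0 were higher (background 6.18%). Ccl9 and Cxcl12 were lower in interzone than in interdigital tissue (2 of 33, 6.06%, background 4.19%), and 0 were higher (background 3.54%). Cxcl16 was higher in growth plate than in interdigital tissue (1 of 33, background 3.88%), and Ccl21c, Ccl9 and Cxcl12 were lower (3 of 33, 9.09%, background 6.26%). These counts use the brightest probes. In the comparisons named here for Cxcl16, Cxcr4 and Cxcl12, only the second Cxcl12 probe, in interzone against interdigital tissue, passed 2-fold the same way in both genotypes. That probe was also past 2-fold lower in interzone than in growth plate, where the brightest Cxcl12 probe was not. It read -4.07 against -1.38 in mutant and -5.51 against 0.21 in control. The control arrays lay on 1 slide. In the additive limma fit 0 members were called for any tissue contrast (background 0.0%); the lowest member p was that of Cxcl4 for interzone against growth plate, -7.62 ± 0.76 (SE), with an adjusted p of 0.391 in limma, which takes the reading near background in mutant interzone as a level.

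Where a member had several probes well above background on both arrays, they were set against the brightest. The sign was shared by 6 of 13 probe pairs in interzone, 8 of 12 in growth plate and 10 of 13 in interdigital tissue. Of pairs whose brightest probe passed 2-fold, the other probe passed it in the same direction in 1 of 4, 4 of 7 and 0 of 1. The 4 in growth plate were those of Ccl24, Ccl25, Ccrl1 and Ccrl2, and the 1 in interzone was that of Ccl19. Probes below background on an array of the pair are left out of these counts, among them those of Cx3cl1 and Cxcl15 whose bounds opposed the brightest probe. Most members have a single probe and no such check.

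**Figure D5:**
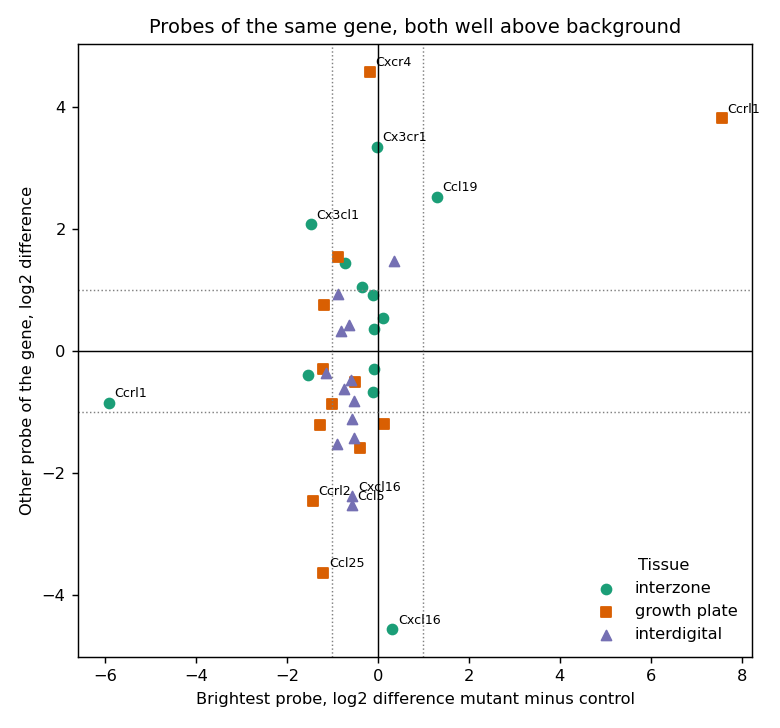
Log2 difference, mutant minus control, of the brightest probe of a gene (x axis) against each other probe of the same gene (y axis), where both were well above background on both arrays of a tissue. Dotted lines mark 2-fold; Ccrl1 in growth plate lies at 7.56 and 3.81, while Cxcl16 in interzone and Cxcr4 in growth plate lie near 0 on the x axis and at -4.56 and 4.58 on the y axis.

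Lists of genes that act with chemokines were read alongside, chosen like the members with earlier results of these data known. Of 33 signal transducers behind the receptors, 4 were higher (background 18.6%) and 6 lower (22.6%) of 31 measured in mutant interzone. In growth plate 8 were higher (background 21.5%) and 6 lower (32.5%) of 30, and in interdigital tissue 1 was higher (background 10.5%) and 5 lower (18.0%) of 31. Gnai2, the inhibitory G protein subunit that most chemokine receptors use, was 2.99-fold higher in mutant growth plate (3.79, against 2.21 in control), and Plcb3, a phospholipase downstream of it, was 4.15-fold higher. Rgs16, which ends G protein signals, was 5.42-fold higher in mutant interzone. Plcb2 and Dock2, leukocyte members of the list, were 4.31-fold and 2.37-fold lower in mutant interdigital tissue.

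Of 21 cytokines, receptors and transcription factors that induce chemokine genes, 7 were higher and 2 lower of 18 measured in mutant interzone, 2 higher and 7 lower of 16 in growth plate, and 1 higher and 2 lower of 18 in interdigital tissue. Nfkbia, an inhibitor and target of NF-kappa-B, stood at 2.75 in mutant and 1.28 in control interzone (2.77-fold higher), and at 1.93 in mutant and 3.63 in control growth plate (3.26-fold lower). Nfkb2 had the same directions, 2.77-fold higher and 2.51-fold lower. Other members of the list went differently. Rela, an NF-kappa-B subunit, was 4.07-fold lower in mutant interzone and 2.65-fold higher in mutant interdigital tissue, and Tnfrsf1a, a receptor of TNF, was 2.37-fold higher in mutant interzone and 4.84-fold higher in mutant growth plate. Nfkb1, named after its values were seen, stood at -0.40 in mutant growth plate and was not detected in control. The interzone list counts, at 7 of 18 higher and 2 of 18 lower, stood against backgrounds of 18.6% and 22.6%. Those of growth plate, at 2 of 16 higher and 7 of 16 lower, stood against 21.5% and 32.5%, and those of interdigital tissue against 10.5% and 18.0%. Tnf was 3.02-fold lower in mutant interdigital tissue (-5.37, against -3.78 in control).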

How the data were processed

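Each of the 6 arrays was a one-colour Agilent array of the same mouse design, read with Agilent Feature Extraction 9.5.1.1, per the file headers. The deposited scanner files hold a processed intensity per spot, background-subtracted and detrended by that software, per the file headers, with no scaling between arrays. The table of values deposited by the authors was found to hold the processed signal divided by the median of its array, a linear ratio with a median of 1 in each column (0.9999 to 1.0001 of the scanner values). The sources used here do not say why.

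Control spots and outlier-flagged spots were dropped, spots of 1 probe were averaged (41174 probes), and the log2 of the deposited intensity minus the array's 75th percentile was used. No spot was saturated, and with 1 array a group the number of arrays limits the precision. Groups came from the titles: 5 descriptions speak of irradiated human blood, and 1 title spelled the mutant without part of its name. The genotype fit used limma 3.58.1 in R 4.3.3 with ~ tissue + genotype over all genes and 2 residual degrees of freedom, adjusted by Benjamini-Hochberg, after it was tested on simulated data. The sources used here do not say which embryos stand behind each array.

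Alternatives were normexp background correction (offset 50), quantile normalization, the percentile over detected probes, the deposited table, the mean over probes, no detection filter, a 4-fold threshold and the slide as a block. The members and lists were chosen with earlier results of these data known. Every member could be named, though the values of 1 member, which the counts include, are not reported here; of the pathway and marker lists, at most 4 genes each, the brightest among those 2-fold apart. RefSeq accessions named 43 members and symbols 4. Probe positions carry no build name in these files and are not printed.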

Additional observations from a re-analysis of the deposited data

Results flagged for a closer look

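Differences that went opposite ways past 2-fold in separate tissues concerned 4 genes. Ccrl1 differed, mutant minus control, by -5.91 in interzone and by 7.56 in growth plate on the log2 scale, where its control reading lay just above the detection floor. Cx3cl1 differed by -1.47 in interzone, against 1.90 in growth plate and 1.93 in interdigital tissue; its other probe read 2.08 in interzone and was at least 2.67-fold and 7.52-fold lower in mutant growth plate and interdigital tissue, the opposite direction in all 3. Cxcl1 differed by 1.93 in interzone and by -2.51 in growth plate, and Cxcl14 by -1.56 in interzone and by 2.07 in interdigital tissue. With 1 array in each group, the difference between tissues was not tested for any of them. The growth plate and interdigital mutant arrays lay on slide 2 and the interzone mutant on slide 1, so slide and tissue cannot be told apart in these contrasts.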

How the results depend on the processing

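Of 39 differences of a member in a tissue past 2-fold, 21 stayed past it in the same direction under all 7 settings, 13 fell under it and 5 reversed. Dropping the detection filter could change none of the 39, and the mean over probes could not change a member with 1 probe. With normexp, interzone had 18 members higher and 3 lower with a median of 1.18, and Ccl1 (1.59), Ccr1l1 (1.13), Ccr4 (0.86) and Ccr8 (0.62) reversed; growth plate had 9 lower, and members 2-fold apart in both genotypes numbered 0 between interzone and growth plate and 1 between growth plate and interdigital tissue. Over the probes of a gene, interzone Cx3cl1 reversed (0.30). With quantile normalization, the growth plate median was -1.66 and 2 members separated growth plate from interdigital tissue. With the percentile over detected probes, growth plate had 5 higher and 7 lower; in the deposited table it had 1 higher and 27 lower with a median of -2.05, and 0 members separated interzone and 2 separated growth plate from interdigital tissue. Without the detection filter, 6 were higher in growth plate and 5 in interdigital tissue. At 4-fold, 1 was higher and 3 lower in interzone, 1 higher and 3 lower in growth plate and 3 lower in interdigital tissue, and no tissue contrast kept a member (0 in each of the 3). Relative to the median difference of all genes, a setting chosen after seeing the data, growth plate had 5 higher and 5 lower. The growth plate median of all genes was -0.47 here, -0.10 with the detected percentile and -1.59 in the deposited table; the interzone median was -0.09 here and 0.40 with normexp. The cause of these changes was not tested, except that the 4-fold and no-filter counts differ by construction. The additive limma fit called 0 members under the 7 other settings run, which included the slide as a fixed block and leaving out the growth plate pair, while in the deposited table it called 16 genes for genotype (12 higher and 4 lower), none of them a member. The slide as a random block was not run, because its correlation could not be estimated. Members near the background of their array are limited by signal over background, with 6 below it on every array. The labels give no replicate numbers, and mutant and control arrays were paired by tissue alone, as the block of the limma fit.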
